A study of Mus with 12 samples.

Results

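The transcripts of 10 antioxidant and metal-binding genes were followed in the mouse uterus across pregnancy. They are the glutathione peroxidases Gpx1, Gpx2, Gpx3, Gpx4, Gpx7 and Gpx8, the metallothioneins Mt1 and Mt2, and the superoxide dismutases Sod1 and Sod3. They were chosen by gene name, from the rows of both deposited expression tables that name a member and list an Ensembl mouse transcript. This rule found 10 rows among the 80228 rows with a gene name of the implantation stage and 11 among the 39455 of the labor stage. The eleventh row of the labor stage carries the merged name Gpx3;Tnip1 and is described apart.

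RNA was sequenced from the whole uterus of 12 pregnant mice of the outbred ICR strain, 8 weeks old, with 1 mouse per library and 3 libraries per group. The groups are E0.5 and E4.5, just after mating and around embryo attachment, called the implantation stage, and E15.5 and E18.5, late gestation and the day before term, called the labor stage. All 4 groups were pregnant, no group received a treatment, and the study compared E0.5 with E4.5 and E18.5 with E15.5. A whole uterus holds epithelium, stroma, smooth muscle, vessels and blood, so in these bulk samples fewer cells of a type and less RNA per cell cannot be told apart.

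Superoxide is a by-product of respiration and of NADPH oxidases. Superoxide dismutases turn it into hydrogen peroxide, Sod1 in the cytosol with copper and zinc, and Sod3 as a secreted enzyme bound to the matrix. Glutathione peroxidases then reduce peroxides with electrons from glutathione. Gpx1 is the abundant cytosolic enzyme, Gpx2 is an epithelial enzyme best known from the gut, Gpx3 is secreted into the extracellular fluid, and Gpx4 reduces lipid peroxides inside membranes. These are selenoproteins in the mouse, while Gpx7 and Gpx8 are enzymes of the endoplasmic reticulum that use cysteine instead of selenocysteine. Metallothioneins are small cysteine-rich proteins that bind zinc and copper, and Mt1 and Mt2 are induced by metals, glucocorticoids and oxidants. In the uterus such enzymes are known for changing with the steroid hormones of the cycle and of pregnancy.

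Positions are those of the implantation table, where the rows span whole genes. Mt2 (chr8:94172664-94173568) and Mt1 (chr8:94179082-94180327) lie on the plus strand, 5513 bases apart. Gpx1 is at chr9:108338903-108340343, Gpx3 at chr11:54902453-54910377, Gpx4 at chr10:80047166-80056439, Sod1 at chr16:90220754-90226329 and Sod3 at chr5:52363791-52371418, all on the plus strand. Gpx2 (chr12:76792333-76795554), Gpx7 (chr4:108400390-108406961) and Gpx8 (chr13:113042753-113046410) lie on the minus strand. These positions overlap the RefSeq genes of the same names in GRCm38. Gpx2 lies within the span of Churc1;Fntb and Gpx8 within that of Cdc20b, both on the opposite strand. The ends of Gpx3 and Tnip1 and of Sod1 and Scaf4 overlap, and the antisense row Gm45774 overlaps Mt2. Whether the counting used strand is not stated, so reads of these overlapping rows cannot be told apart. Mt1 and Mt2, and Gpx4 and Gpx2 with their pseudogenes, are similar enough in sequence that reads could also be split between them.

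The tables of the stages were normalized separately, so levels are compared within a stage. FPKM are fragment counts divided by the length of the transcript and the size of the library, and the implantation table also gives counts, with totals of 58020989 to 70906881 per library. The 10 genes had counts between 100 and 22423 per library. The labor table holds no counts and its depth is unknown. E4.5 replicate 3 stood apart. Its 6 ovary markers (Cyp11a1, Star, Hsd3b1, Cyp17a1, Inha and Lhcgr) summed to 1337 FPKM, against 3.91 to 6.07 FPKM in the other 5 libraries, and its oviduct, smooth muscle and epithelium sums were 90.4, 184 and 72.8 FPKM against 8.12 to 24.2, 626 to 1051 and 100.1 to 255 FPKM. E15.5 replicate 1 stood apart by Prl8a2, a decidual prolactin, with 1342 FPKM against 40.2 to 86.0 FPKM in the other labor libraries. With 3 libraries against 3, an exact two-sided permutation test cannot go below 0.1, so the tests below are fits across all rows.

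At the implantation stage none of the 10 genes passed the adjusted threshold. All 10 had a fitted level below E4.5 at E0.5, by 0.17 to 0.86 on the log2 scale, and 51.5% of all 52738 tested rows had a negative value. The median log2 fold change of the 10 genes was -0.65, against -0.03 over all tested rows. Without E4.5 replicate 3 the median was -0.34 with 9 of 10 negative, and by limma on FPKM it was -0.49 with 8 of 10 negative. The marker sums of cell types went both ways. Endothelium and decidua markers were lower in sum at E0.5, while epithelium, stroma, macrophage and adrenal markers were higher in sum, as given below. The 4 endothelium markers summed to 18.9 to 21.9 FPKM at E0.5, compared with 28.2 to 52.4 FPKM at E4.5, with 3 of 4 lower without overlap, and the 6 decidua markers to 25.8 to 28.2 and 36.3 to 121 FPKM, with 2 of 6 lower and 1 of 6 higher without overlap. No endothelium or decidua marker was at 0 in all 6 libraries. The decidual prolactins Prl8a2 and Prl3c1 were above 0 only in E4.5 replicate 1, at 0.734 and 0.392 FPKM. Gja1 made up 108 FPKM of the decidua sum of 121 FPKM in E4.5 replicate 3, and Alpl was the decidua marker higher at E0.5. The part of these markers in the member values was not tested. By the quasi-likelihood test of edgeR, adjusted by the Benjamini-Hochberg method, 0 of 10 genes had an adjusted p under 0.05, where 1.40% of all rows did, and DESeq2 also called 0. At an unadjusted p under 0.05 there were 2 of 10, Gpx3 and Gpx4, against 17.6% of all rows in either direction. Both were lower at E0.5, against 9.23% of all rows. The study's own criterion, a log2 fold change of 1 or more in size together with an unadjusted p under 0.05, was met by 0 of 10 genes and by 12.1% of all rows. The libraries of both days did not overlap for 2 of 10 genes, Gpx4 and Gpx8, with E0.5 lower in each, and 13.4% of all rows showed such a separation.

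**Figure D1:**
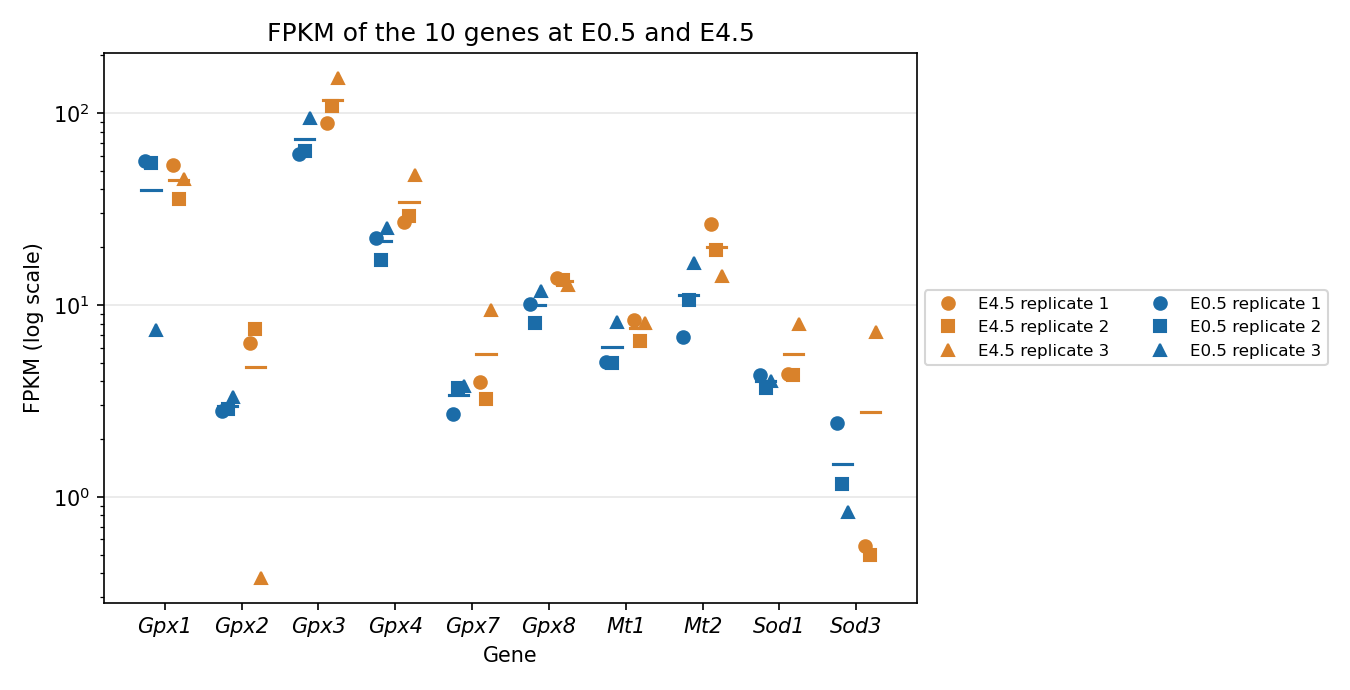
FPKM on a log axis of the 10 genes in each library of E0.5 (blue) and E4.5 (orange), with a symbol per replicate and a line at the group mean. Gpx1 of E0.5 replicate 3 lies at 7.45 FPKM below the other libraries, and Gpx2 and Sod3 of E4.5 replicate 3 lie at 0.379 and 7.23 FPKM, on opposite sides of the rest of their group.

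Among the selenoprotein peroxidases, secreted Gpx3 had the highest level. It measured 61.3, 63.6 and 94.1 FPKM at E0.5, compared with 88.7, 108 and 152.5 FPKM at E4.5. The highest E0.5 library exceeded the lowest E4.5 library. The group means were 73.0 ± 18.3 and 117 ± 32.7 FPKM (SD, n = 3), and the log2 fold change of E0.5 relative to E4.5 was -0.64 ± 0.26 (SE, edgeR, adjusted p = 0.272). Without E4.5 replicate 3 it was -0.42.

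Gpx4, the membrane lipid peroxidase, gave 22.3, 17.1 and 25.1 FPKM at E0.5, compared with 27.2, 29.0 and 47.3 FPKM at E4.5. Each E0.5 library was below each E4.5 library, and E4.5 replicate 3 was the highest. The log2 fold change was -0.65 ± 0.26 (edgeR, adjusted p = 0.260), the smallest adjusted p of the 10 genes, and it was -0.38 without E4.5 replicate 3 (edgeR, adjusted p = 0.299). The pseudogene row Gpx4-ps2 held 10.3 to 11.7 FPKM at E0.5, compared with 11.9, 11.9 and 24.7 FPKM at E4.5, with E4.5 replicate 3 highest as for Gpx4 itself. Gpx4-ps1 held between 3.88 and 7.04 FPKM.

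Gpx1, the cytosolic peroxidase, had 1 library far from the rest. It measured 56.6, 54.9 and 7.45 FPKM at E0.5, compared with 53.4, 35.8 and 45.6 FPKM at E4.5. E0.5 replicate 3 was low, with a count of 936 against 5853 and 6968 in the other E0.5 libraries. The neighbouring gene Rhoa, which ends just before Gpx1, measured 13.5 to 13.7 FPKM in the 3 E0.5 libraries, and the next row, Usp4;Gm37963, 5.69 to 7.39 FPKM. The log2 fold change of Gpx1 was -0.17 ± 0.66 (edgeR, adjusted p = 0.922), and it was 0.33 without E0.5 replicate 3. Both neighbours were looked at after the values of Gpx1 had been seen.

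Gpx2, the epithelial peroxidase, gave 2.79, 2.86 and 3.33 FPKM at E0.5, compared with 6.36, 7.49 and 0.379 FPKM at E4.5. E4.5 replicates 1 and 2 were above each E0.5 library, and E4.5 replicate 3 was below them with a count of 100. The log2 fold change was -0.65 ± 0.87 (edgeR, adjusted p = 0.745). Without E4.5 replicate 3 it was -1.20 (edgeR, adjusted p = 0.0128), which was the only call that leaving out 1 library gave among the 10 genes at this stage, and 6.69% of all rows had an adjusted p under 0.05 in that fit. The 6 epithelium markers summed to 217 to 255 FPKM at E0.5, to 100.1 and 150.6 FPKM in E4.5 replicates 1 and 2 and to 72.8 FPKM in E4.5 replicate 3. All 6 were above 0 in some library, and 4 of 6 did not overlap between the days, each higher at E0.5. Their part in the level of Gpx2 was not tested. The pseudogene row Gpx2-ps1 held 0.968 to 3.23 FPKM, highest in E4.5 replicate 3, where Gpx2 was lowest.

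Of the peroxidases of the endoplasmic reticulum, Gpx8 measured 10.1, 8.09 and 11.8 FPKM at E0.5, compared with 13.8, 13.5 and 12.7 FPKM at E4.5, so the days did not overlap. Its log2 fold change was -0.39 ± 0.20 (edgeR, adjusted p = 0.369). Gpx7 measured 2.71, 3.69 and 3.78 FPKM at E0.5, compared with 3.95, 3.23 and 9.41 FPKM at E4.5, with E4.5 replicate 3 far above the rest. Its log2 fold change was -0.67 ± 0.43 (edgeR, adjusted p = 0.460), and -0.08 without that library.

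Neither metallothionein separated the early days. Mt1 measured 5.03, 4.97 and 8.11 FPKM at E0.5, compared with 8.30, 6.48 and 8.03 FPKM at E4.5. Mt2 measured 6.80, 10.7 and 16.5 FPKM at E0.5, compared with 26.3, 19.4 and 14.2 FPKM at E4.5. For both genes E0.5 replicate 3 reached into the range of E4.5. The log2 fold changes were -0.31 ± 0.27 for Mt1 (edgeR, adjusted p = 0.601) and -0.80 ± 0.40 for Mt2 (edgeR, adjusted p = 0.351). Without E0.5 replicate 3 Mt2 was at -1.18, and without E4.5 replicate 3 at -1.01, and in both fits it met the study's criterion but had adjusted p-values of 0.302 and 0.182 by edgeR. The FPKM of Mt2 was 1.35 to 2.14 times that of Mt1 at E0.5, and 3.17, 2.99 and 1.77 times at E4.5.

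Of the superoxide dismutases, Sod1 varied little outside E4.5 replicate 3. It measured 4.34, 3.71 and 3.998 FPKM at E0.5, compared with 4.36, 4.29 and 7.97 FPKM at E4.5. Only E4.5 replicate 3 stood out. The log2 fold change was -0.43 ± 0.26 (edgeR, adjusted p = 0.432), and -0.10 without E4.5 replicate 3.

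Sod3, the secreted dismutase, had the largest fitted log2 fold change of the 10 genes, -0.86 ± 1.05 (edgeR, adjusted p = 0.718), and its direction rested on 1 library. It measured 2.43, 1.17 and 0.834 FPKM at E0.5, compared with 0.553, 0.5004 and 7.23 FPKM at E4.5. E4.5 replicates 1 and 2 were below each E0.5 library, and E4.5 replicate 3 was above them all. Without E4.5 replicate 3 the log2 fold change was 1.48, with E0.5 higher (edgeR, adjusted p = 0.129). The 6 ovary markers of that library are given above, none was at 0 in all libraries, and 1 of 6 did not overlap between the days. The 5 fat markers (Adipoq, Plin1, Lep, Cidec and Fabp4) summed to 63.8, 25.1 and 21.8 FPKM at E0.5, compared with to 9.30, 3.55 and 28.7 FPKM at E4.5, in the same order of libraries within each day as Sod3. No fat marker was at 0, and 1 of 5 did not overlap between the days. The part of either tissue in the level of Sod3 was not tested.

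The 3 protein-coding rows most like Sod3 over the 6 libraries, among 1533 with at least 10 FPKM on average, were Idh1, Plin4 and Itga9. The root mean square differences of their centred log2 values from those of Sod3 were 0.45, 0.46 and 0.50. Idh1, the cytosolic isocitrate dehydrogenase that makes NADPH, had 42.4 FPKM in E4.5 replicate 3 and 2.58 to 7.64 FPKM in the other libraries. Plin4, a lipid droplet protein, and Itga9, an integrin subunit, also had their highest values there, 29.4 and 25.6 FPKM.

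By level per length, the order of the group means at E0.5 was Gpx3, Gpx1, Gpx4, Mt2, Gpx8, Mt1, Sod1, Gpx7, Gpx2 and Sod3. At E4.5 it was the same 10 genes in the same order, from 117 FPKM for Gpx3 to 2.76 FPKM for Sod3. Neighbours whose libraries overlapped at both days were Gpx1 and Gpx4, Sod1 and Gpx7, and Gpx7 and Gpx2. Gpx3 was above each other gene in all libraries of E0.5 and of E4.5.

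At the labor stage both metallothioneins were lower at E18.5 than at E15.5, with the largest fold changes of the 10 genes. Mt1 was 2.86-fold and Mt2 3.31-fold lower on the fitted scale of log2(FPKM + 0.1). Neither passed the adjusted threshold. By limma with Benjamini-Hochberg adjustment 0 of 10 genes had an adjusted p under 0.05, against 0.0439% of all 29597 tested rows. At an unadjusted p under 0.05 there were 2 of 10, where 3561 of all 29597 rows were in either direction. Both were lower at E18.5, against 5.42% of all rows. That criterion of the study held for 2 of 10 genes, against 5.60% of all rows, and both were lower at E18.5, against 2.71% of all rows. The days did not overlap for the same 2 genes, with E18.5 lower, against 8.79% of all rows. Of the 10 log2 fold changes 6 were negative, against 47.8% of all rows, and their median was -0.23, against 0.02 over all rows. Without E15.5 replicate 1 the median was -0.0549. That fit gave 0.10 for Gpx3, -0.10 for Gpx4, -0.05 for Gpx7, 0.0468 for Gpx8, -1.44 for Gpx1, 0.14 for Gpx2, 0.03 for Sod1 and -0.0617 for Sod3.

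**Figure D2:**
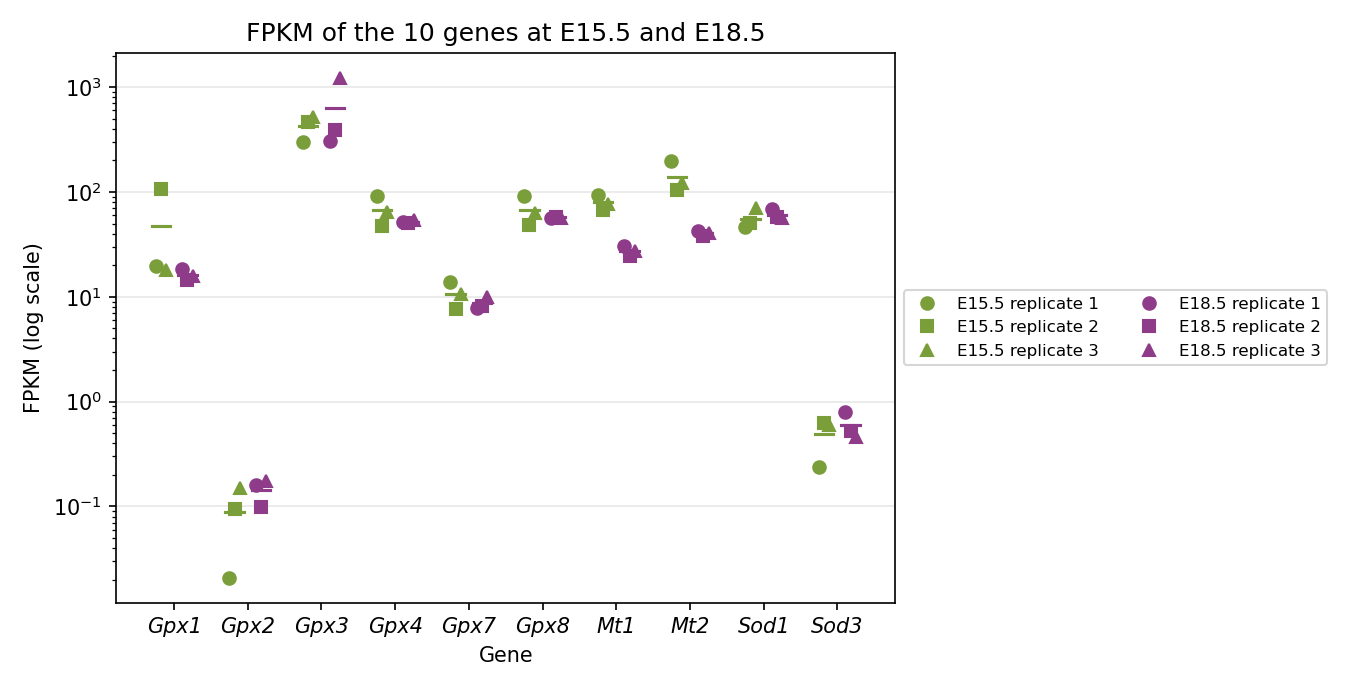
FPKM on a log axis of the 10 genes in each library of E15.5 (green) and E18.5 (purple), with a symbol per replicate and a line at the group mean. Mt1 and Mt2 separate the days, with 68.0 to 94.4 and 104 to 196 FPKM at E15.5 and 24.5 to 30.8 and 38.4 to 42.4 FPKM at E18.5, while Gpx1 of E15.5 replicate 2 and Gpx3 of E18.5 replicate 3 lie far above their groups.

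Mt1 measured 94.4, 68.0 and 76.5 FPKM at E15.5 and 30.8, 24.5 and 27.6 FPKM at E18.5. The lowest E15.5 library was above the highest E18.5 library. The group means were 79.7 ± 13.5 and 27.6 ± 3.19 FPKM (SD, n = 3), and the log2 fold change was -1.52 ± 0.17 (limma, adjusted p = 0.0684). Over the 6 fits that left out 1 library it stayed between -1.39 and -1.63, and over all 15 alternatives the adjusted p ran from 0.0268 to 0.290.

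Mt2 measured 196, 104 and 121 FPKM at E15.5 and 42.4, 38.4 and 40.9 FPKM at E18.5. Again the days were apart, with E15.5 replicate 1 highest and the E18.5 libraries close together. The group means were 140 ± 48.9 and 40.6 ± 2.03 FPKM (SD, n = 3), and the log2 fold change was -1.73 ± 0.24 (limma, adjusted p = 0.0936). Without E15.5 replicate 1 it was -1.46 and passed (limma, adjusted p = 0.0360), while Mt1 in that fit was at -1.39 (limma, adjusted p = 0.0527). In that fit 0.115% of all rows had an adjusted p under 0.05. The ratio of Mt2 to Mt1 was 2.07, 1.52 and 1.57 at E15.5 and 1.38, 1.57 and 1.49 at E18.5, so E15.5 replicate 1 had the highest ratio.

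The antisense row Gm45774, which overlaps Mt2, was also lower at E18.5 without overlap. Within each day it did not follow Mt2, being highest in replicate 2, where Mt2 was lowest. It measured 4.51, 4.58 and 3.15 FPKM at E15.5 and 1.01, 1.18 and 0.807 FPKM at E18.5, with a log2 fold change of -1.92 ± 0.22 (limma, adjusted p = 0.0700). The protein-coding rows most like Mt2 over the 6 libraries, among 2434 with at least 10 FPKM on average, were Tmed6, Mt1 and Angpt4. Their root mean square differences from Mt2 in centred log2 values were 0.17, 0.18 and 0.24. Mt1 was thus the second nearest of 2434 rows. Tmed6, a protein of vesicle traffic, measured 25.2, 13.0 and 11.9 FPKM at E15.5 and 4.95 to 5.58 FPKM at E18.5. Angpt4, an angiopoietin, measured 20.3, 14.2 and 11.7 FPKM at E15.5 and 5.001 to 6.48 FPKM at E18.5.

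Markers of several cell types also separated these days. The 6 epithelium markers summed to 197 to 412 FPKM at E15.5 and to 593 to 819 FPKM at E18.5, with 5 of 6 higher at E18.5 without overlap. The 4 endothelium markers summed to 134 to 165 FPKM at E15.5 and to 64.5 to 94.1 FPKM at E18.5, with 2 of 4 lower without overlap. The 5 trophoblast markers summed to 3.13 to 12.3 and 36.9 to 56.3 FPKM, of which the row of Tpbpa alone did not overlap. The 6 decidua markers summed to 76.4 to 1362 FPKM at E15.5 and to 49.0 to 68.2 FPKM at E18.5, with 1 of 6 lower and 1 of 6 higher without overlap. None of these markers was at 0 in all 6 libraries. Their part in the metallothionein values was not tested.

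Gpx3 was by far the most abundant of the 10 genes, with 299, 467 and 517 FPKM at E15.5 and 303, 391 and 1224 FPKM at E18.5. E18.5 replicate 3 was high and the other E18.5 libraries lay within the range of E15.5. The log2 fold change was 0.34 ± 0.54 (limma, adjusted p = 0.830), and -0.27 without E18.5 replicate 3. The merged row Gpx3;Tnip1 held 4.61 to 7.52 FPKM and had a log2 fold change of -0.12 ± 0.21 (limma, adjusted p = 0.848).

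Gpx1 again had 1 library far from the rest. It measured 19.6, 106 and 18.1 FPKM at E15.5 and 18.2, 14.4 and 15.8 FPKM at E18.5. E15.5 replicate 2 was high and the other 5 libraries lay close together. Rhoa measured 26.0 FPKM in that library and 28.2 to 31.8 FPKM in the others. The log2 fold change of Gpx1 was -1.06 ± 0.64 (limma, adjusted p = 0.551), and -0.23 without E15.5 replicate 2.

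Gpx4 and Gpx8, enzymes of different compartments, had much alike values in these libraries. Gpx4 measured 91.4, 47.8 and 64.0 FPKM at E15.5 and 51.4, 50.3 and 53.6 FPKM at E18.5. Gpx8 measured 91.9, 48.8 and 62.8 FPKM at E15.5 and 56.9, 58.2 and 56.5 FPKM at E18.5. For both genes E15.5 replicate 1 was the highest and E15.5 replicate 2 the lowest library, and the E18.5 values lay between them. The log2 fold changes were -0.34 ± 0.23 and -0.20 ± 0.23 (limma, adjusted p = 0.601 and 0.756).

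The remaining members overlapped between E15.5 and E18.5. Gpx7 measured 13.8, 7.59 and 10.5 FPKM at E15.5 and 7.88, 8.20 and 10.0 FPKM at E18.5 (log2 fold change -0.26 ± 0.23, limma, adjusted p = 0.682). Sod1 measured 46.8, 50.9 and 69.7 FPKM at E15.5 and 68.4, 57.7 and 56.6 FPKM at E18.5 (log2 fold change 0.14 ± 0.19, limma, adjusted p = 0.785). Sod3 stayed below 1 FPKM, with 0.235 to 0.631 FPKM at E15.5 and 0.461 to 0.804 FPKM at E18.5 (log2 fold change 0.30 ± 0.38, limma, adjusted p = 0.780). Gpx2 was near the detection filter, with 0.0209 to 0.149 FPKM at E15.5 and 0.0979 to 0.177 FPKM at E18.5 (log2 fold change 0.43 ± 0.41, limma, adjusted p = 0.701). The labor row of Gpx2 lists 2 Ensembl transcripts, both of which are among the 3 of the implantation row, and the other is in no labor row. The labor rows of Gpx8 and Sod1 also lack 1 transcript each of the implantation rows.

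The order of the group means at E15.5 began with Gpx3, Mt2 and Mt1 (428, 140 and 79.7 FPKM), followed by Gpx8, Gpx4, Sod1 and Gpx1, whose libraries overlapped from each to the next. At E18.5 it began with Gpx3, Sod1, Gpx8 and Gpx4 (639, 60.9, 57.2 and 51.8 FPKM), and Mt2 and Mt1 came next with 40.6 and 27.6 FPKM. All E18.5 libraries of Gpx4 were above those of Mt2, and all E15.5 libraries of Mt2 were above those of Gpx4. Gpx7, Sod3 and Gpx2 were the lowest on both days.

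**Figure D3:**
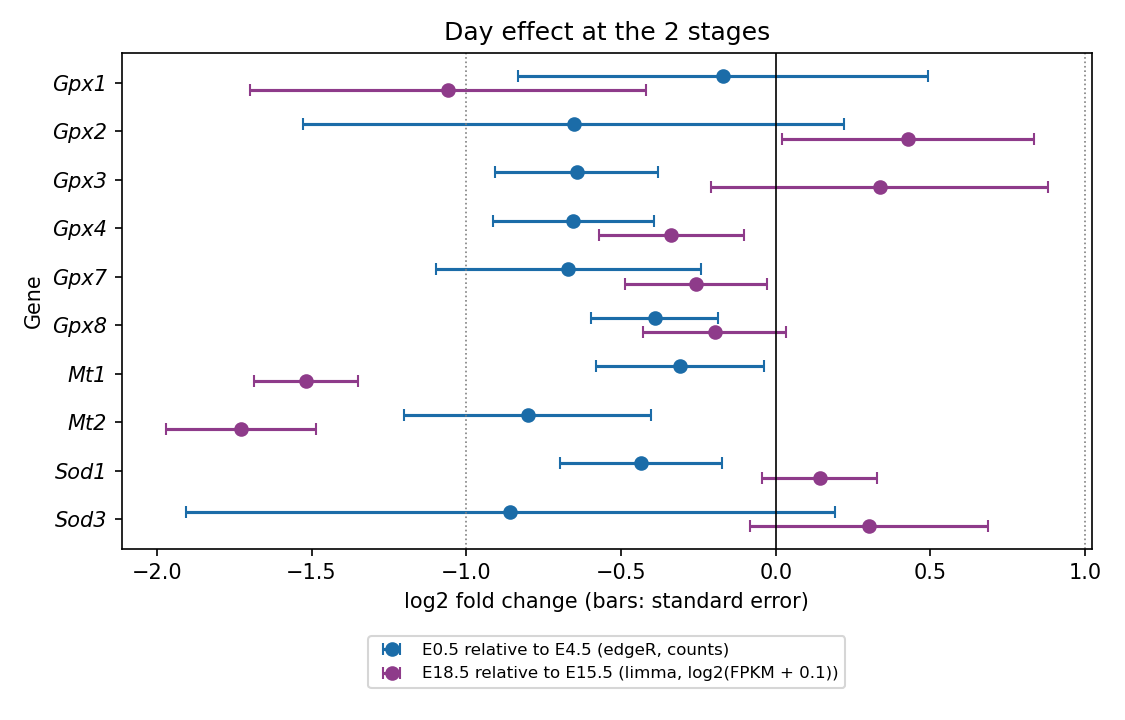
Log2 fold changes of the 10 genes with their standard errors, E0.5 relative to E4.5 from edgeR on counts (blue) and E18.5 relative to E15.5 from limma on log2(FPKM + 0.1) (purple), with dotted lines at -1 and 1. Mt1 and Mt2 at the labor stage lie at -1.52 and -1.73 with standard errors of 0.17 and 0.24, and the widest bars belong to Gpx1, Gpx2 and Sod3.

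The effect of the day was also compared between the stages, as the difference of both log2 fold changes in a limma fit over all 12 libraries. Of the 10 genes 0 had an adjusted p under 0.05, against 2.70% of the 21393 row pairs tested, and 1 had an unadjusted p under 0.05, against 18.2% of the pairs. This was Mt1, whose log2 fold change at the implantation stage was 1.16 ± 0.30 above that at the labor stage (limma, adjusted p = 0.0624). With a pseudocount of 1 the difference of Mt1 was 1.18 and passed (limma, adjusted p = 0.0454), with 3.14% of the pairs called in that fit. Mt2 differed in the same direction by 0.87 ± 0.47 (limma, adjusted p = 0.366). Gpx3 differed by -1.002 ± 0.66 (limma, adjusted p = 0.465).

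**Figure D4:**
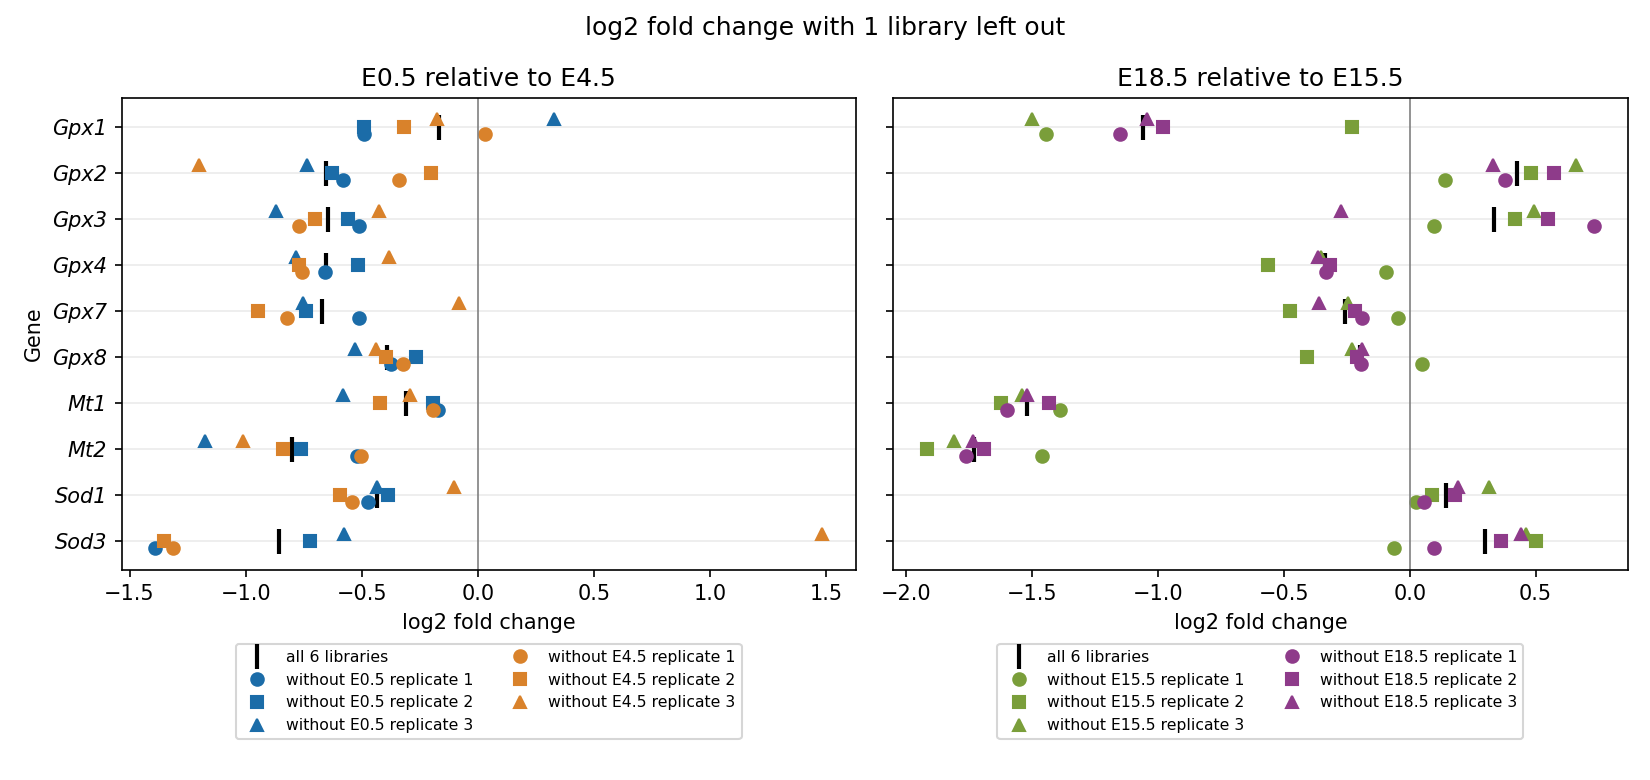
Log2 fold change of each gene with all 6 libraries of a stage (black bar) and with 1 library left out (coloured symbols), E0.5 relative to E4.5 on the left and E18.5 relative to E15.5 on the right. Sod3 moves to 1.48 without E4.5 replicate 3, Gpx1 to 0.33 without E0.5 replicate 3, and Mt1 and Mt2 at the labor stage stay at or below -1.39.

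The genes around these enzymes were described from 8 lists with 118 genes. At the implantation stage 109 were tested, 5 rose at E0.5 by edgeR with an adjusted p under 0.05, and 0 fell, 4.59% of those tested against the 1.40% of all rows. At an unadjusted p under 0.05 there were 34 of 109, or 31.2%, against 17.6% of all rows. By DESeq2 13 of the 109 were higher and 7 lower with an adjusted p under 0.05, where 5297 of all 52738 rows were called. Under the study's criterion 9 were higher and 5 lower, 12.8% of those tested against the 12.1% of all rows, and 50 log2 fold changes were positive and 59 negative. For E18.5 against E15.5, 114 genes were tested and 0 passed by limma, with 14 of 114 at an unadjusted p under 0.05, where 3561 of all 29597 rows were. Under the criterion 3 were higher and 3 lower at E18.5, 5.26% of those tested against the 5.60% of all rows, with 56 positive and 58 negative values.

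Glutathione synthesis and recycling held 2 of the 5 calls at E0.5, and 0 of its 14 tested genes fell. Gsr, the reductase that restores oxidized glutathione, measured 19.1, 16.0 and 18.9 FPKM at E0.5, compared with 8.14, 9.36 and 7.37 FPKM at E4.5. The days did not overlap, and the log2 fold change was 1.14 ± 0.17 (edgeR, adjusted p = 0.0358). Ggt5, a cell surface enzyme that cleaves glutathione conjugates, had 12.3 ± 3.39 FPKM at E0.5, compared with 2.54 ± 0.709 FPKM at E4.5 (SD, n = 3), with a log2 fold change of 2.29 ± 0.31 (edgeR, adjusted p = 0.0296). The median of the list was 0.22 between the early days and 0.04 between the late days. At E18.5 Gsr was higher without overlap, 23.6 ± 6.43 against 16.4 ± 1.13 FPKM (log2 fold change 0.49 ± 0.20, limma, adjusted p = 0.402).

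Of 16 tested glutathione transferases, which attach glutathione to other molecules, 1 rose at E0.5 and 0 fell, with a median of -0.31. Gstt2 measured 9.26, 6.57 and 12.3 FPKM at E0.5, compared with 1.57, 2.27 and 2.83 FPKM at E4.5 (log2 fold change 2.10 ± 0.31, edgeR, adjusted p = 0.0352). The median was 0.12 for E18.5 relative to E15.5. Gsto1, an omega class transferase, measured 38.9, 55.9 and 84.2 FPKM at E15.5 and 322, 214 and 195 FPKM at E18.5. Its lowest E18.5 library was above each E15.5 library, and the log2 fold change was 2.06 ± 0.32 (limma, adjusted p = 0.112).

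Sources of superoxide and peroxide held the other 2 calls, with 2 of 11 tested genes higher at E0.5, 0 lower and a median of 0.78. Noxa1, an activating subunit of the NADPH oxidase NOX1, measured 6.49, 6.99 and 4.91 FPKM at E0.5, compared with 0.406, 0.464 and 0.173 FPKM at E4.5. This was the largest change among the list genes called, a log2 fold change of 4.14 ± 0.43 (edgeR, adjusted p = 0.0191). Xdh, the xanthine dehydrogenase of purine breakdown, had 14.1 ± 3.73 FPKM at E0.5, compared with 3.13 ± 0.502 FPKM at E4.5 (SD, n = 3), with a log2 fold change of 2.20 ± 0.24 (edgeR, adjusted p = 0.0208). At the labor stage 14 were tested with a median of -0.15, and Ncf4, a cytosolic subunit of the phagocyte oxidase, was at 5.30 ± 1.37 FPKM at E15.5 and 2.02 ± 0.275 FPKM at E18.5 (log2 fold change -1.32 ± 0.22, limma, adjusted p = 0.122).

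These 5 calls changed with the library left out. Each passed without E4.5 replicate 3 and failed when any of the other 5 libraries (E0.5 replicates 1, 2 and 3 and E4.5 replicates 1 and 2) was left out, and the highest adjusted p in these edgeR fits was between 0.113 for Noxa1 and 0.140 for Gsr. No direction changed. All 5 were among the DESeq2 calls counted above. By edgeR without E4.5 replicate 3, 13 of the 109 list genes were higher and 5 lower, these 5 included, where 3526 of all 52738 rows were called. The epithelium markers were higher at E0.5 than at E4.5, as given above for Gpx2. The 4 macrophage markers summed to 33.1 to 45.3 FPKM at E0.5, compared with 18.6 to 26.2 FPKM at E4.5, and the 6 stroma markers to 257.1 to 408 and 123 to 256.9 FPKM, with 2 higher without overlap in each list, and adrenal markers were higher in sum as well, 5.04 to 20.3 and 0.0801 to 0.435 FPKM, with 1 of 4 higher without overlap and Cyp11b2 at 0. Their part in these values was not tested.

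In the other 5 lists no gene passed with all libraries, by edgeR at the implantation stage or by limma at the labor stage. At an unadjusted p under 0.05 there were 22 of 68 genes at the implantation stage, against 17.6% of all rows. At the labor stage there were 7 of 70, where 3561 of all 29597 rows were. DESeq2 called 10 of these 68 genes at the implantation stage, against 10.0% of all rows. Among them were Mt3, Txnrd1, Lrp2, Slc30a5 and Bach1 (DESeq2, adjusted p = 0.00064, 0.0019, 6.9e-07, 0.0054 and 0.00063). By edgeR 8 of the 68 passed without E4.5 replicate 3, against 6.69% of all rows. Among them were the same genes except Mt3, and none of the 68 passed when any of the other 5 libraries was left out. At the labor stage 0 of 70 passed by limma with any 1 library left out. Among the related family members, mitochondrial Sod2, the copper chaperone Ccs and the third metallothionein Mt3 were tested at the implantation stage, and all 3 had negative values. Mt3 measured 0.367, 0.332 and 0.564 FPKM at E0.5, compared with 1.19, 1.94 and 3.02 FPKM at E4.5 (log2 fold change -2.21 ± 0.45, edgeR, adjusted p = 0.0704). In the labor table, of this list, 5 were tested with a median of -0.96, and Gpx6 measured 3.31, 2.46 and 2.37 FPKM at E15.5 and 0.838, 1.18 and 1.10 FPKM at E18.5 (log2 fold change -1.30 ± 0.21, limma, adjusted p = 0.1205). Neither gene overlapped between the days. Mt3 at the labor stage was at -0.96 ± 0.41 (limma, adjusted p = 0.417).

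**Figure D5:**
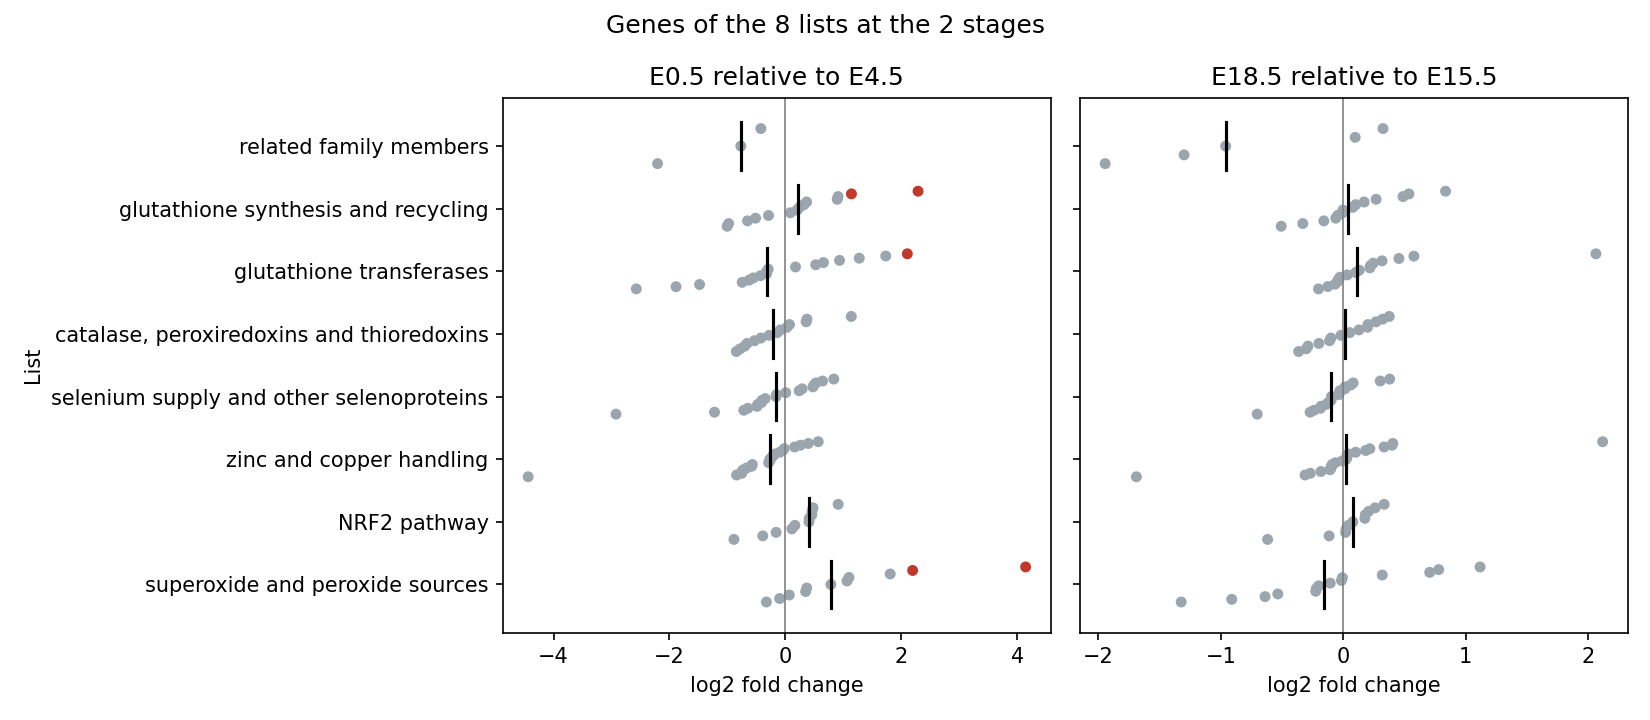
Log2 fold changes of the tested genes of the 8 lists, E0.5 relative to E4.5 on the left and E18.5 relative to E15.5 on the right, with 1 point per gene, a black bar at the list's median and red for an adjusted p under 0.05 by edgeR (left) or limma (right). The 5 red points are Gsr, Ggt5, Gstt2, Noxa1 and Xdh, all above 0 at the implantation stage, and the labor stage has none.

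Of 21 tested genes of zinc and copper handling, 17 had negative values at the implantation stage, with a median of -0.27. The gene with the smallest p was Slc30a5, a zinc transporter of the secretory pathway, with 4.33 ± 0.505 FPKM at E0.5, compared with 7.41 ± 0.957 FPKM at E4.5 (log2 fold change -0.75 ± 0.17, edgeR, adjusted p = 0.0861). At the labor stage the median was 0.02 and 10 of 21 were negative. Slc39a4, a zinc importer of the cell surface, measured 2.36, 3.26 and 4.42 FPKM at E15.5 and 19.3, 16.4 and 9.43 FPKM at E18.5 (log2 fold change 2.12 ± 0.32, limma, adjusted p = 0.106). Its days did not overlap, with E18.5 the higher, whereas both metallothioneins had E18.5 the lower.

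Among 19 genes of selenium supply and other selenoproteins the medians were -0.16 and -0.10. Lrp2, an endocytic receptor that takes up selenoprotein P in the kidney, measured 0.595, 0.434 and 1.20 FPKM at E0.5, compared with 7.42, 6.62 and 3.00 FPKM at E4.5 (log2 fold change -2.92 ± 0.52, edgeR, adjusted p = 0.0529). Selenoh, a nuclear selenoprotein, was at 4.03 ± 0.331 FPKM at E15.5 and 2.45 ± 0.376 FPKM at E18.5 (log2 fold change -0.70 ± 0.16, limma, adjusted p = 0.187). Among the 14 genes of catalase, peroxiredoxins and thioredoxins the medians were -0.21 and 0.02. Txnrd1, the cytosolic thioredoxin reductase, was at 17.3 ± 4.30 FPKM at E0.5, compared with 7.96 ± 1.52 FPKM at E4.5 (log2 fold change 1.14 ± 0.24, edgeR, adjusted p = 0.0739). Prdx6 was at 12.9 ± 1.54 FPKM at E15.5 and 10.5 ± 0.529 FPKM at E18.5 (log2 fold change -0.29 ± 0.13, limma, adjusted p = 0.435).

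The NRF2 pathway, named for the factor that switches on many antioxidant genes, had 8 of 11 positive values between the early days and 9 of 11 between the late days, with medians of 0.41 and 0.08. Bach1, a repressor of such genes, was at 9.47 ± 1.57 FPKM at E0.5, compared with 5.12 ± 0.362 FPKM at E4.5 (log2 fold change 0.91 ± 0.17, edgeR, adjusted p = 0.0612). Mafk, a partner of both NRF2 and Bach1, was at 8.46 ± 0.625 FPKM at E15.5 and 10.7 ± 0.520 FPKM at E18.5 (log2 fold change 0.33 ± 0.12, limma, adjusted p = 0.334).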

How the data were processed

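The authors trimmed reads with Cutadapt, mapped them with Bowtie2 and Tophat2 and estimated expression with StringTie and Ballgown. The submitters' processing notes name Bowtie 0.12.2, HISAT2 2.0, StringTie 1.3.0 and the builds mm8 and mm10. The labels describe poly(A) selection and the study's methods ribosomal RNA depletion. The authors deposited FPKM for both stages and, for the implantation stage, whole-number counts, whose counting is not given in the sources used here. Values of 0.0001 FPKM in the implantation table stood for 0 and were set to 0. Rows without a gene name (1.02% to 1.86% of counts, 0.389% to 0.575% of labor FPKM) were left out. A row was tested where its mean over a stage reached 0.1 FPKM, counts with edgeR 4.0.16 (TMM, quasi-likelihood) and labor FPKM with limma 3.58.1 (trend) on log2(FPKM + 0.1), which understates changes of low genes. DESeq2 1.42.0 ran as an alternative, all in R 4.3.3. Adjusted p-values follow Benjamini and Hochberg over all tested rows. The stage difference used limma over row pairs that share an Ensembl transcript. Both tests were checked on simulated data.

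The members and lists were chosen with earlier results of these data known. Named were all members, each list gene past the adjusted threshold or else that with the smallest p per stage, and the 3 rows most like the member with the largest log2 fold change. No sequences are shown.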

Additional observations from a re-analysis of the deposited data

Results flagged for a closer look

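A row named Gpx4 without an Ensembl transcript, which the comparisons leave out, spans chr10:80050626-80051006 inside the Gpx4 gene, with no strand given. It held a count of 60 in E0.5 replicate 1, 0 in E0.5 replicates 2 and 3, and 4, 12 and 3 in the E4.5 libraries. It is listed because its signal lies outside the main measurement. The Gpx4 row itself held 2181 to 6622 counts.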

How the results depend on the processing

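The replicate numbers did not pair the libraries, with correlations of same-numbered deviations of -0.07 to 0.02 at the implantation stage and -0.03 to 0.01 at the labor stage. With the replicate block no member passed at either stage, and Sod3 at the implantation stage moved to 0.36. Over all rows the block left 0 and 4 calls of 739 and 13. Limma on FPKM gave Gpx2 0.11 and Sod3 0.0203 at the implantation stage. DESeq2 gave Sod3 no adjusted p. Leaving out 1 library gave 0 to 1 members with an adjusted p under 0.05 and 0 to 3 past the study's criterion at the implantation stage, with Gpx1 between -0.49 and 0.33 and Sod3 between -1.39 and 1.48. The 3 were Gpx2, Mt2 and Sod3, without E4.5 replicate 3, where 7360 of all 52738 rows met that criterion. At the labor stage leaving out 1 library gave 0 to 1 members with an adjusted p under 0.05. Without E15.5 replicate 1 this was Mt2, where 34 of all 29597 rows were called. Gpx3 ran between -0.27 and 0.73, Gpx8 between -0.41 and 0.0468 and Sod3 between -0.0617 and 0.50. Quantile normalization gave 1 member, Mt1 (limma, adjusted p = 0.0268), with 0.0405% of all rows called. For the stage difference a pseudocount of 1 gave 1 member, Mt1, with 3.14% of all pairs called, and leaving out 1 library took Gpx1 from -0.40 to 1.39, Gpx2 from -1.61 to 0.38, Gpx7 from -0.59 to 0.17 and Sod3 from -0.90 to 0.90. The cause of these shifts was not tested beyond the libraries named.

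Of the alternative values of single members, 133 of 140 at the implantation stage, 143 of 148 at the labor stage and 140 of 150 for the stage difference kept direction and side of the threshold. Calls over all rows moved more, from 739 to between 0 and 3526 with 1 library left out and to 5297 by DESeq2, and at the labor stage from 13 to between 2 and 34. At a mean of at least 1 FPKM Gpx2 and Sod3 were not tested at the labor stage. Keeping rows without a gene name, an alternative chosen after seeing the data, changed no member's call. The unknown depth of the labor libraries limits what can be said of Gpx2 and Sod3 there.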

Other observations

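The spread among the libraries of a day changed when a library that stood apart was left out. With all libraries the coefficient of variation was smaller at E18.5 than at E15.5 for 9 of the 10 genes, the exception being Gpx3, and for 56.7% of all rows with a value on both days. For Gpx8 it was 1.52% at E18.5 and 32.5% at E15.5, for Gpx4 3.25% and 32.6%, and for Mt2 4.99% and 35.0%. Without E15.5 replicate 1, which leaves 2 libraries at E15.5, it was smaller at E18.5 for 7 of the 10 genes, the exceptions being Gpx3, Mt1 and Sod3, and for 37.7% of all rows, and at E15.5 it was 17.8% for Gpx8, 20.5% for Gpx4 and 10.6% for Mt2. At the implantation stage it was smaller at E0.5 for 6 of the 10 genes and for 57.4% of all rows, and without E4.5 replicate 3 for 1 of the 10, Gpx2, and for 39.2% of all rows. This was looked at after the values had been seen and was not tested.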
